A study of Macaca mulatta with 17 samples.

Results

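Bone morphogenetic proteins (BMPs) and activins are secreted ligands of the TGF-beta superfamily. They bind pairs of serine/threonine kinase receptors, which phosphorylate SMAD proteins that move to the nucleus and change transcription. Secreted antagonists bind the ligands outside the cell and keep them from their receptors. In developing organs the balance of ligand and antagonist helps set where epithelium buds and mesenchyme differentiates, and in the adult uterus BMP2 is known for its part in the change of stroma into decidua.

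The genes described are 10 members of this system, chosen by name: the ligands BMP2, BMP4, BMP5 and BMP7, the activin subunit INHBA, the antagonists FST, GREM1 and NOG, and the BMP target genes ID1 and ID3. They were found by the gene symbol in the description of each array probe and were read by 12 of the 20217 probes of an Agilent rhesus macaque array, on which 15977 gene symbols occur. FST and ID1 had 2 probes each, and the probe with the higher mean signal stands for the gene. All 10 genes were found. The members were chosen with earlier results of these data known, so their shares beside all probes are descriptive.

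RNA from 17 uteri of female rhesus macaque fetuses was measured, 1 array per fetus, in 4 groups. The GD100 control group (n = 5) and the GD100 BPA group (n = 5) were delivered at gestational day 100, by caesarean section, after daily treatment of the dam from day 50. The GD165 control group (n = 4) and the GD165 BPA group (n = 3) were born vaginally at gestational days 165 to 168 after treatment of the dam from day 100. BPA dams ate a fruit treat with 400 µg of deuterated bisphenol A per kg per day, and control dams one with ethanol vehicle. A sagittal piece of each uterus, running from fundus to cervix, gave the RNA, and stillborn fetuses were left out by the study. Age, mode of delivery and the window of exposure cannot be told apart in these groups. The comparisons below ask how the members differ with gestational age, within controls and within BPA-exposed fetuses, and with BPA at each age.

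Levels are log2 signals after the arrays were brought to a common 75th percentile, and a difference of 1 in level is a doubling of signal. A probe was counted as measured on an array where the scanning software called it well above background. That held for 83.8 to 89.0% of the spots, depending on the array. Of 10 Müllerian marker genes of the uterus, 8 were well above background on all 17 arrays, HOXA10, HOXA11, EMX2 and ESR1 among them. The probe for PGR, the progesterone receptor, was not on any (0), and that for LHX9 was not on any GD165 BPA array. In the paper, nuclei of GD165 uteri stained for the progesterone receptor protein. Markers of other tissues stood high on single arrays. The summed level of 11 skeletal muscle markers was 12.85 to 13.97 on the GD100 arrays, 13.76 to 16.52 in GD165 BPA and up to 17.50 in GD165 control replicate 5. The sum of 8 squamous epithelial markers reached 16.96 in GD165 control replicate 6 against 14.26 to 15.53 on the other arrays.

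The probes are 60 bases long, and each reads only the transcripts that hold its stretch. Stretches of those behind the age results are given 5′ to 3′, as the array files write them. The BMP2 stretch is an open frame within its probe, with the stop codon in capitals, and shows a probe that reads the last codons of the protein. The others are windows of 30 bases. Capitals there mark ATTAAA, a variant of the polyadenylation signal AATAAA, which was searched for on the given strand only, and windows without either have no capitals. Of all 20217 probes, 16.8% hold 1 of these hexamers. Both probes of FST and of ID1 are shown because the pairs did not give the same size of difference.
BMP2: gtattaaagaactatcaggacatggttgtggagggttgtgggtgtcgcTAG
NOG: tgtttaactgtgtaggaatgtatatgtgtg
ID1: tgtttctttgttATTAAAcaaataatttag
ID1 second probe: gaccactagattatccttatacctacgggg
ID3: aatgcgatgtatATTAAActttttataaaa
FST: atatcttctattctagagtggtaaactctc
FST second probe: tgttgttgtccgtatttaaacaacagctcc

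With age, ID1 rose in controls and in BPA-exposed fetuses, and it was the only member past an adjusted p of 0.01 in each comparison (limma across all probes, Benjamini-Hochberg). NOG was lower at GD165 by more than any other member, with a larger spread between animals, and did not pass. That is 1 of 10 members in controls, where 11.5% of all 20217 probes passed (6.32% higher and 5.2% lower), and 1 of 10 in BPA-exposed fetuses, where 9.68% did (4.82% higher and 4.86% lower). Passing in both in the same direction, as ID1 did, was seen for 6.67% of probes. At an adjusted p of 0.05 the members were BMP2, NOG, ID1 and ID3 in controls, against 21.2% of probes, and NOG and ID1 in BPA-exposed fetuses, against 21.0%. At an unadjusted limma p of 0.05 they were 7 of 10 in controls, against 33.1% of probes, and 3 of 10 in BPA-exposed fetuses, against 34.5%. At the 0.01 threshold the members thus passed about as often as all probes. Their median log2 difference was 0.34 in controls and 0.01 in BPA-exposed fetuses, beside 0.00 and −0.05 over all probes, and without BMP5, which was at background, it was 0.34 and 0.28. The 2 age comparisons share no arrays. Of the 9 members other than BMP5, 8 differed in the same direction in both, with BMP7 as the exception, against 70.7% of all probes.

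**Figure D1:**
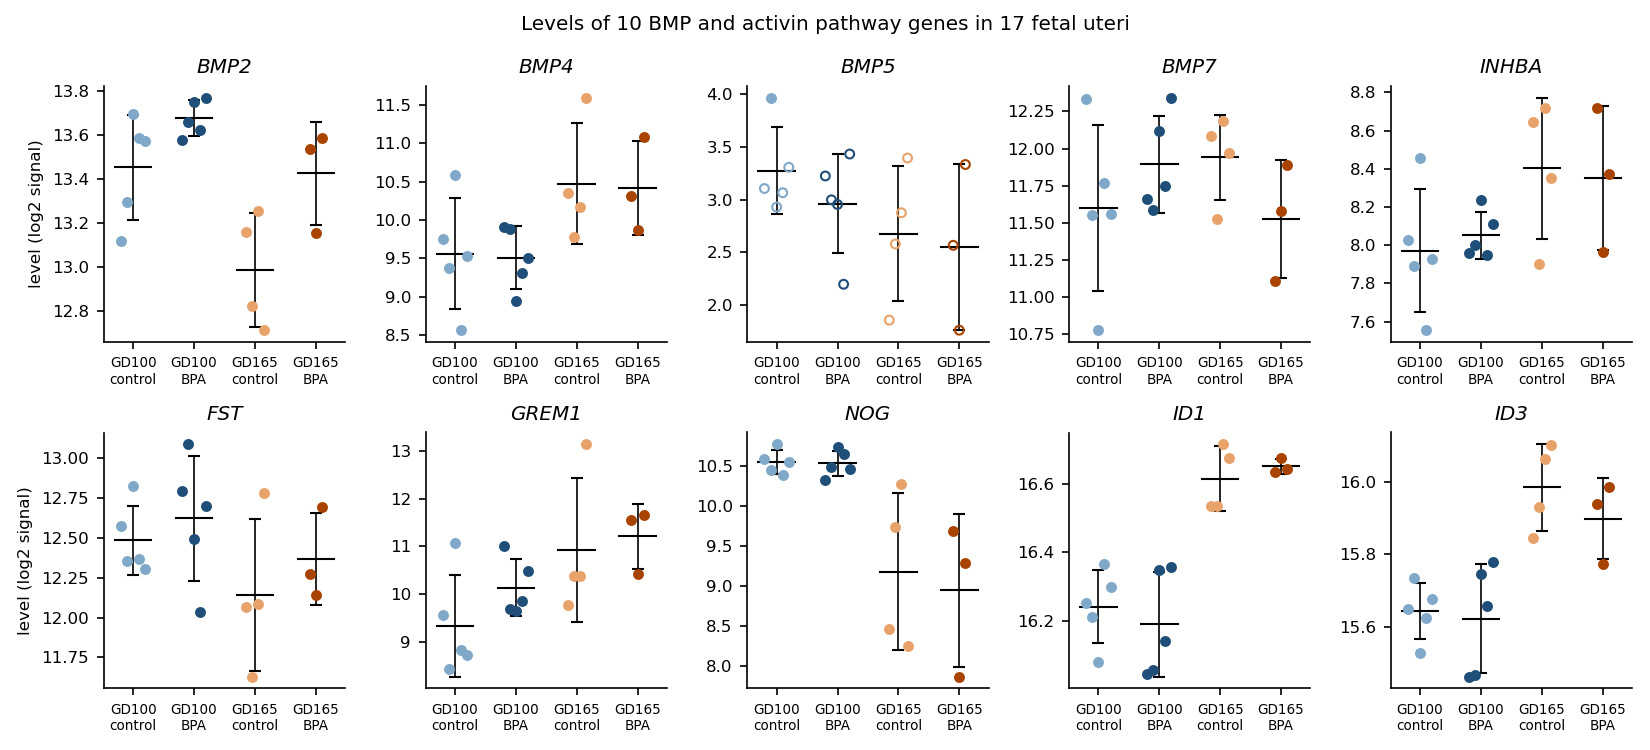
Level of each member (log2 signal, vertical axis, a scale of its own in each panel) in the 17 uteri by group. Points are animals, open where the probe was not well above background, and the bars are the group mean and SD; ID1 lies higher in every GD165 animal than in every GD100 animal, NOG lies lower, and BMP5 stays at background on all arrays but 1.

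Among the ligands no member passed the threshold with age. BMP2, a BMP ligand, stood at 13.12, 13.29, 13.69, 13.59 and 13.57 in the GD100 controls and at 13.16, 12.82, 13.25 and 12.71 in the GD165 controls. In the BPA groups it stood at 13.58, 13.66, 13.75, 13.62 and 13.77 at GD100 and at 13.54, 13.15 and 13.58 at GD165. The lowest GD100 control lay within the range of the GD165 controls, and the groups overlapped in both comparisons. The log2 difference, GD165 minus GD100, was −0.47 ± 0.14 (SE) in controls, a signal 1.38 times lower, with a limma adjusted p of 0.026, which misses the 0.01 threshold. In BPA-exposed fetuses the difference was −0.25 ± 0.15 with a limma adjusted p of 0.26. Between 1 animal and 1 other on slides that held both ages, it was −0.87 and −0.41 in controls and −0.19 with BPA.

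BMP4, a ligand made mainly by mesenchyme in many organs, varied over more than 2 log2 units among the GD100 controls, at 9.75, 9.38, 10.58, 8.56 and 9.53. The GD165 controls stood at 10.35, 9.78, 10.17 and 11.60. The BPA groups stood at 9.91, 9.88, 8.94, 9.30 and 9.5 at GD100 and at 10.31, 9.86 and 11.08 at GD165. The highest animal of each age group in controls was GD100 replicate 3 and GD165 replicate 6, and the ages overlapped in controls and in BPA. The log2 differences were both 0.91, with an SE of 0.40 and a limma adjusted p of 0.13 in controls and an SE of 0.44 and an adjusted p of 0.16 in BPA-exposed fetuses. Without GD165 control replicate 6, the animal with the squamous marker sum of 16.96, the control difference was 0.54, and without GD165 BPA replicate 5 the difference in BPA-exposed fetuses was 0.58. Within slides the sign was not constant, at −0.81 and 0.82 in controls and 1.58 with BPA.

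BMP5 was at background. Its probe was well above background on 1 of 17 arrays, GD100 control replicate 2, at a level of 3.97, and on the other arrays it read 1.76 to 3.43. No fold is given for it. BMP7, an epithelial ligand in many organs, stood at 12.34, 11.55, 10.77, 11.77 and 11.56 in the GD100 controls and at 12.08, 11.53, 12.18 and 11.97 in the GD165 controls. In the BPA groups it stood at 11.66, 11.59, 12.12, 11.75 and 12.34 at GD100 and at 11.10, 11.58 and 11.89 at GD165. The log2 difference with age was 0.34 ± 0.26 (limma adjusted p = 0.41) in controls and −0.37 ± 0.29 (adjusted p = 0.39) in BPA-exposed fetuses. The difference between these opposite signs did not pass the interaction test of limma, at −0.71 ± 0.39 with an unadjusted p of 0.088 and an adjusted p of 0.70.

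INHBA, which encodes the activin beta A subunit, stood at 8.03, 7.89, 8.46, 7.56 and 7.93 in GD100 controls and at 8.64, 7.90, 8.72 and 8.35 in GD165 controls. In the BPA groups it stood at 7.96, 8.0, 8.24, 7.95 and 8.11 at GD100 and at 8.72, 7.96 and 8.37 at GD165. In each comparison all but 1 of the GD165 animals stood above their GD100 group's mean. The log2 differences were 0.43 ± 0.19 (limma adjusted p = 0.13) in controls and 0.30 ± 0.21 (adjusted p = 0.34) in BPA-exposed fetuses.

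Of the 3 antagonists, NOG was lower at GD165 without overlap, GREM1 read higher with wide spread and FST read lower on both probes. NOG encodes noggin, which binds BMPs and blocks their receptor contacts. Its level was tight at GD100, at 10.58, 10.45, 10.77, 10.39 and 10.54 in controls and at 10.32, 10.49, 10.73, 10.64 and 10.45 with BPA. At GD165 it was 8.46, 9.74, 10.27 and 8.24 in controls and 9.68, 7.87 and 9.29 with BPA. Every GD165 animal lay below every GD100 animal of its own treatment, and the GD165 animals differed among themselves far more than the GD100 animals did, with an SD of 0.98 against 0.15 in controls. The log2 difference was −1.37 ± 0.39, a signal 2.58 times lower, with a limma adjusted p of 0.020 in controls. In BPA-exposed fetuses it was −1.58 ± 0.42, a signal 2.99 times lower, with an adjusted p of 0.016. Neither passed 0.01. GD165 control replicate 5 had the highest NOG at that age and the skeletal muscle marker sum of 17.50. The part of these markers in NOG was not tested. Without this animal the control difference was −1.73 with a limma adjusted p of 0.0036. The difference in BPA-exposed fetuses, which keeps its arrays but not the shared spread, then had an adjusted p of 0.0071. Without GD165 control replicate 6, the animal with the lowest NOG of the controls, the control difference shrank to −1.06 (limma adjusted p = 0.079). Without GD165 BPA replicate 4, the lowest of all, the difference in BPA-exposed fetuses shrank to −1.04 (adjusted p = 0.10). On slides that held arrays of both ages the differences were −1.03 and −2.08 in controls and −1.17 with BPA, from 1 animal against 1 on each.

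The 11 markers of proliferating cells also read lower at GD165. All 11 fell in controls and 10 of 11 in BPA-exposed fetuses, by limma at an adjusted p of 0.01, and their summed level went from 16.47 to 16.65 in GD100 controls to 15.14 to 15.58 in GD165 controls. With BPA it went from 16.49 to 16.60 at GD100 to 15.19 to 16.04 at GD165. Among the GD165 controls the proliferation sum was highest, at 15.58, in replicate 5, which also had the highest NOG, but GD165 BPA replicate 5 with the highest sum of 16.04 had a NOG level of 9.29. GD165 control replicate 3 had the lowest control sum, 15.14, with a NOG level of 9.74. Control replicate 6, with the lowest control NOG of 8.24, had a sum of 15.36. GD165 BPA replicate 3 had the lowest sum of its group, 15.19, and the highest NOG, 9.68. The part of these markers in the difference of NOG was not tested. In whole-tissue RNA, fewer cells of a type and less RNA per cell cannot be told apart, for NOG and for every member.

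GREM1, which encodes the BMP antagonist gremlin, stood at 9.57, 8.44, 11.08, 8.84 and 8.74 in the GD100 controls and at 9.77, 10.38, 10.39 and 13.14 in the GD165 controls. With BPA it stood at 11.01, 9.69, 9.64, 9.86 and 10.49 at GD100 and at 11.55, 10.43 and 11.65 at GD165. The ages overlapped in both, through GD100 control replicate 3 and GD100 BPA replicates 1 and 5. The log2 difference was 1.59 ± 0.64 in controls (limma adjusted p = 0.094) and 1.07 ± 0.70 with BPA (adjusted p = 0.30). Within slides it was −0.70 and 1.03 in controls and 1.17 with BPA. The highest GREM1 level, 13.14, was in GD165 control replicate 6, the animal with the squamous marker sum of 16.96, and leaving that animal out the control difference was 0.85. Whether this marker difference has a part in GREM1 was not tested.

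FST encodes follistatin, which binds activins with high affinity and BMPs less tightly. The probe with the higher signal read 12.57, 12.35, 12.82, 12.37 and 12.30 in GD100 controls and 12.07, 11.63, 12.08 and 12.78 in GD165 controls. With BPA it read 12.80, 13.09, 12.49, 12.04 and 12.70 at GD100 and 12.27, 12.14 and 12.69 at GD165. In controls all GD165 animals but replicate 6 lay below the GD100 range. The log2 difference was −0.34 ± 0.23 (limma adjusted p = 0.32) in controls and −0.26 ± 0.25 (adjusted p = 0.50) with BPA. The second probe gave larger differences, −0.53 ± 0.17 (adjusted p = 0.035) and −0.63 ± 0.18 (adjusted p = 0.024), and with BPA its groups did not overlap. The deviations of the 17 animals from their group means had a Pearson r of 0.89 between the FST probes, so they ranked the animals much alike.

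ID1 and ID3 encode helix-loop-helix proteins without a DNA-binding region, and both are direct targets of BMP-activated SMADs. ID1 read 16.25, 16.21, 16.08, 16.37 and 16.30 in GD100 controls and 16.54, 16.53, 16.72 and 16.68 in GD165 controls. With BPA it read 16.05, 16.06, 16.35, 16.14 and 16.36 at GD100 and 16.63, 16.68 and 16.64 at GD165. The ages did not overlap in either. ID1 rose by 0.37 ± 0.09 on the log2 scale in controls, to 1.3 times the GD100 signal, with a limma adjusted p of 0.0061. In BPA-exposed fetuses it rose by 0.46 ± 0.09, to 1.38 times, with an adjusted p of 0.0034. Groups without overlap were found for NOG, ID1 and ID3 in controls, where 19.4% of all probes had none, and for NOG and ID1 in BPA-exposed fetuses, where 27.2% had none.

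Over all settings the ID1 difference stayed between 0.32 and 0.48 in controls and between 0.41 and 0.64 with BPA, but the call did not hold in all. Leaving out each animal in turn gave log2 differences of 0.33 to 0.40 with adjusted p values of 0.0059 to 0.022 in controls, above 0.01 without GD100 control replicates 1 (0.013), 2 (0.014) or 3 (0.017) or GD165 control replicates 1 (0.010), 5 (0.019) or 6 (0.022). In BPA-exposed fetuses the limma adjusted p was above 0.01 without GD165 BPA replicate 3 (0.011), 4 (0.018) or 5 (0.013). On slides that held both ages, ID1 was higher at GD165 by 0.45 and 0.24 in controls and by 0.29 with BPA. The second ID1 probe differed by 0.58 ± 0.17 (adjusted p = 0.023) and 0.47 ± 0.19 (adjusted p = 0.086), also upward but short of the threshold, and its deviations had an r of 0.32 with those of the first.

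ID3 read 15.65, 15.74, 15.53, 15.63 and 15.68 in GD100 controls and 15.84, 15.93, 16.06 and 16.10 in GD165 controls, without overlap. With BPA it read 15.46, 15.47, 15.75, 15.66 and 15.78 at GD100 and 15.94, 15.77 and 15.99 at GD165, where 1 GD100 animal lay above the lowest GD165 animal. The log2 difference was 0.34 ± 0.09 in controls, with a limma adjusted p of 0.013 that misses the threshold. With BPA it was 0.28 ± 0.10 at an adjusted p of 0.055. Within slides the differences were 0.40 and 0.17 in controls and 0.21 with BPA.

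In the same age comparisons as ID1 and ID3, markers of several cell types also differed. Of 11 endothelial markers 3 rose in each by limma at an adjusted p of 0.01 and none (0) passed downward. Of these 11, KDR read lower, with a log2 difference of −0.30 in each. The summed level of the 11 went from 16.71 to 17.06 in GD100 controls to 17.38 to 17.86 in GD165 controls. With BPA it went from 16.84 to 16.95 at GD100 to 17.36 to 17.80 at GD165. Of 8 epithelial markers 4 rose in controls and 2 with BPA, with summed levels of 16.84 to 17.47 and 17.78 to 18.13 in controls at GD100 and GD165, and of 16.76 to 17.29 and 17.39 to 17.78 with BPA. None of these markers was below background on all arrays of a group (0). Of 9 smooth muscle markers 3 rose in controls and 2 with BPA, and all 9 had log2 differences above 0 in both. Of 10 leukocyte markers 1 rose in each comparison, and their summed level went from 14.51 to 15.37 on the GD100 arrays to 15.91 to 17.17 on the GD165 arrays. Erythroid markers had the widest gap in summed level, 12.44 to 15.47 at GD100 and 17.49 to 19.24 at GD165, although most single markers of that list read lower, 7 of 8 in controls and 6 of 8 with BPA. Of 11 skeletal muscle markers 4 rose in controls and 1 with BPA, and 10 had log2 differences above 0 in each. Of 8 stromal markers 7 read lower in controls and 6 with BPA, and 1 passed, downward in controls. The part of these markers in the rise of ID1 was not tested.

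**Figure D2:**
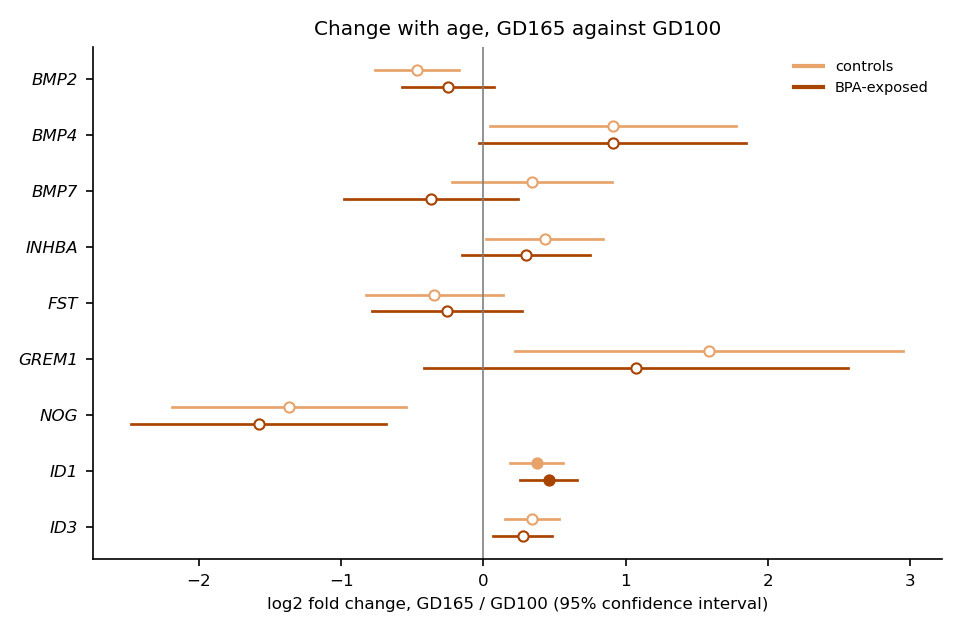
Log2 fold change of 9 members with age (horizontal axis, GD165 over GD100) with its 95% confidence interval, in controls (upper line of each pair, light) and in BPA-exposed fetuses (lower line, dark). Filled points passed an adjusted p of 0.01; only ID1 is filled, while NOG has the lowest values, −1.37 and −1.58.

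No member (0 of 10) passed an adjusted p of 0.01 between BPA-exposed and control fetuses at either age, and 0 of the 20217 probes did (0.0%). By limma at an unadjusted p of 0.05, 0 members passed at GD100, where 3.79% of probes did, and 1 member, BMP2, passed at GD165, where 8.61% did. No member (0) had groups without overlap, beside 0.782% of probes at GD100 and 7.31% at GD165.

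BMP2 read higher with BPA at GD165, where the means were 13.42 ± 0.24 (SD, n = 3) and 12.99 ± 0.26 (n = 4) in controls. The log2 difference of 0.44 had a 95% interval of 0.10 to 0.78, a limma unadjusted p of 0.015 and an adjusted p of 0.49. An exact permutation test between these groups, over 35 regroupings, gave an unadjusted p of 0.17. GD165 BPA replicate 4, at 13.15, lay inside the control range. On the only slide with both groups, BPA replicates 3 and 4 stood 0.19 above control replicate 1. In the same comparison 7 of 8 squamous epithelial markers read lower with BPA, with a median log2 difference of −1.15 and 5 of them at an unadjusted limma p under 0.05, and 8 of 8 epithelial markers read lower, with a median of −0.43, but no marker of either list (0) passed an adjusted p of 0.01. The summed squamous level was 14.30, 15.12, 15.53 and 16.96 in the GD165 controls and 14.26 to 14.35 with BPA. Control replicate 1, at 14.30, thus lay within the BPA range, and replicate 6, at 16.96, was the highest. The part of these markers in the difference of BMP2 was not tested. At GD100 the difference was 0.22, with an interval of −0.06 to 0.50, and the interaction of BPA and age did not reach an unadjusted limma p of 0.05 for any member (0 of 10), beside 7.83% of probes.

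For the other ligands the intervals include no difference. The log2 difference of BMP4 with BPA was −0.05 at both ages, with intervals of −0.86 to 0.76 at GD100 and −1.04 to 0.93 at GD165. For BMP7 it was 0.29 (−0.24 to 0.82) at GD100 and −0.42 (−1.05 to 0.22) at GD165. For INHBA it was 0.08 (−0.31 to 0.47) and −0.05 (−0.52 to 0.42).

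Among the antagonists the widest interval was that of GREM1, with a log2 difference of 0.80 (−0.48 to 2.09) at GD100 and 0.29 (−1.27 to 1.85) at GD165. Differences of FST were 0.14 (−0.32 to 0.60) and 0.23 (−0.32 to 0.78) on the brighter probe. On the second FST probe they were 0.32 (−0.02 to 0.65) and 0.22 (−0.19 to 0.62). Those of NOG were −0.02 (−0.80 to 0.76) and −0.23 (−1.17 to 0.71). The brighter probes of the target genes had the tightest limits. The difference of ID1 with BPA was −0.05 (−0.23 to 0.12) at GD100 and 0.04 (−0.17 to 0.24) at GD165, and that of ID3 was −0.02 (−0.20 to 0.16) and −0.09 (−0.30 to 0.13). The second ID1 probe had wider intervals, −0.38 to 0.31 at GD100 and −0.56 to 0.26 at GD165.

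**Figure D3:**
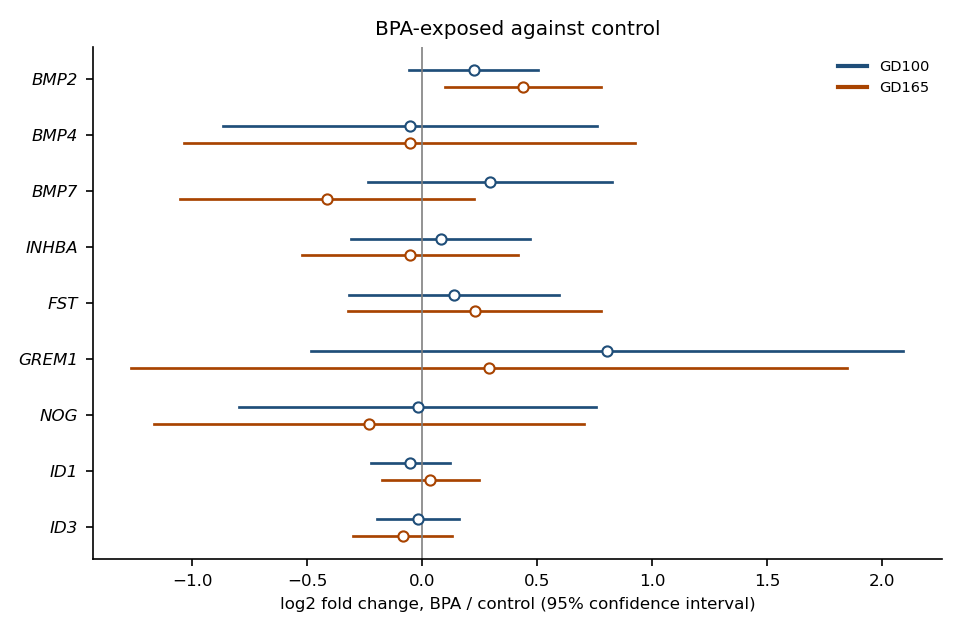
Log2 fold change of 9 members with BPA (horizontal axis, BPA over control) with its 95% confidence interval, at GD100 (upper line of each pair) and GD165 (lower line). No member passed an adjusted p of 0.01, and the interval of BMP2 at GD165, 0.10 to 0.78, is the only one that leaves out 0.

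Animals of one group differed together in some members. Over the 17 arrays, with each animal expressed as the deviation from its group mean, 36 pairs of members were compared and permutation p values came from 100000 shuffles of the animals within their groups. BMP4 and FST had a Pearson r of 0.81 and a Spearman rho of 0.83 (permutation p = 0.0004 for both, Benjamini-Hochberg 0.014 and 0.015). Without the 2 animals farthest from the median of BMP4, GD165 control replicate 6 and GD100 control replicate 3, r was 0.70. BMP4 and GREM1 had an r of 0.80 and a rho of 0.71 (permutation p = 0.0030 and 0.0056, adjusted 0.055 and 0.051), which dropped to an r of 0.57 without those animals. The ligand BMP4 and these antagonists were all high in GD165 control replicate 6, by 1.12, 0.64 and 2.22 log2 units over the group mean for BMP4, FST and GREM1.

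ID1 and ID3 had an r of 0.74 and a rho of 0.69 (permutation p = 0.0077 and 0.017, adjusted 0.069 and 0.12), and 0.64 without 2 GD100 BPA animals. BMP7 and ID1 had an r of 0.67 and a rho of 0.73 (permutation p = 0.0073 and 0.0030, adjusted 0.069 and 0.051). BMP4 and ID1 gave an r of −0.40 and a rho of −0.32 (permutation p = 0.11 and 0.25, adjusted 0.51 and 0.75). Only the relation of BMP4 and FST passed 0.05 after adjustment over the 36 pairs.

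**Figure D4:**
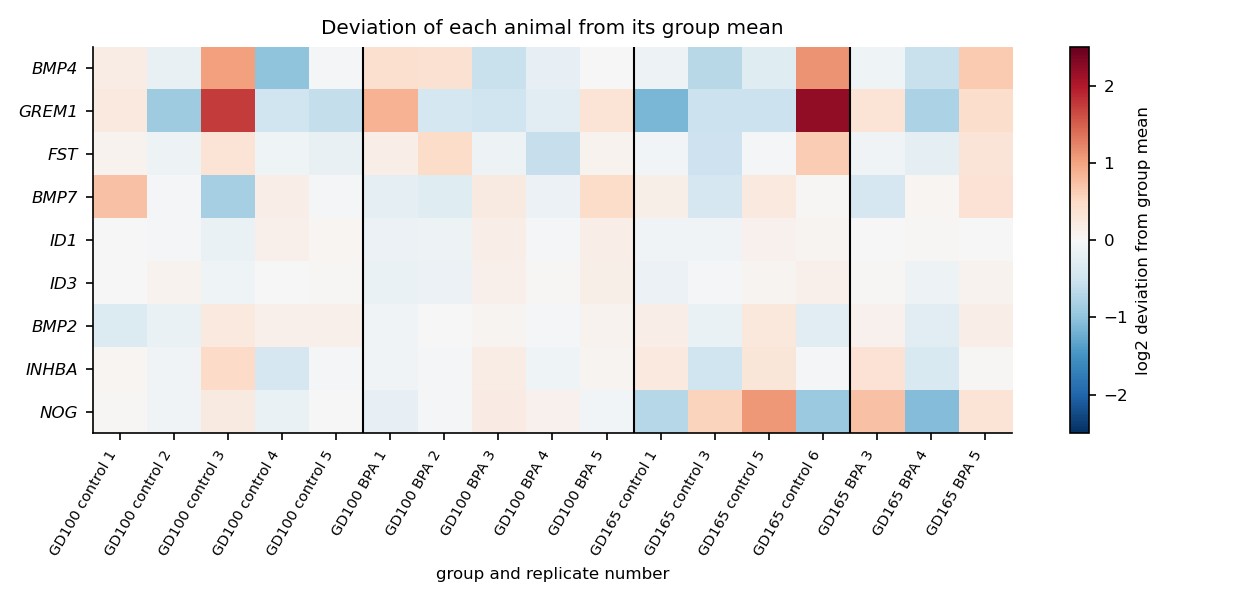
Deviation of each animal from its group mean (color, log2 units) for 9 members, with animals in columns by group and replicate number. GD165 control replicate 6 is high in BMP4, GREM1 and FST, at 1.12, 2.22 and 0.64, and the NOG row is near 0 at GD100 and varies at GD165.

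As a description, the genes whose deviations were most like those of each member over the same arrays were listed, 3 per member, with r as the measure. The names are those of the array's design, some of them old. They were RAB33A (0.91), LIPH and XLKD1 for BMP4, PROX1 (0.89), LIN7A and EDNRB for FST, and K6HF (0.89), DLX1 and ADAM12 for GREM1. For NOG they were LSM6 (0.91), NRG1 and CD83, for ID1 LECT1 (0.80), SSBP3 and CLDN3, and for ID3 CRB3 (0.90), CLBA1 and DSP. The names were not sorted by cell type. For BMP2 they were HSU79266 (0.88), RC3 and KRTCAP2, for BMP7 CDW92 (0.85), SP5 and TAF7, and for INHBA SLCO5A1 (0.82), CPA4 and USP45.

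The rest of the pathway was read from a list of 109 other genes, 98 of which were on the array. This list too was made with earlier results known, so its shares beside all probes are descriptive. In controls 9 were higher and 6 lower at GD165 by limma at an adjusted p of 0.01, 15.3% of the 98 beside 11.5% of all probes, and their median log2 difference was 0.16. In BPA-exposed fetuses 9 were higher and 4 lower, 13.3% beside 9.68%, with a median of 0.05. None (0 of 98) passed in either comparison of BPA with control.

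Other antagonists and extracellular modulators had 3 higher and 2 lower of 21 in controls. SOSTDC1, a secreted antagonist of BMP and Wnt, fell from 14.31 to 14.86 in GD100 controls to 11.85 to 13.72 at GD165, by 1.58 ± 0.32 on the log2 scale (limma adjusted p = 0.0026), and by 1.66 ± 0.35 with BPA (adjusted p = 0.0039). CHRDL1, a chordin-like BMP antagonist, moved the other way, from 8.30 to 9.38 up to 9.83 to 10.24, a rise of 1.23 ± 0.19 (adjusted p = 0.0004) and of 1.34 ± 0.21 with BPA (adjusted p = 0.0006). The metalloproteases TLL1 and TLL2, relatives of BMP1, moved apart. TLL1 rose by 1.36 ± 0.24 in controls. TLL2 fell from 4.94 to 5.96 in GD100 controls to 3.00 to 4.11 at GD165, where it was well above background on only 1 of 4 arrays, so that the size of the fall is uncertain. Its log2 difference was −2.09 and ranged from −2.24 to −0.54 over the settings, the smallest with normexp background correction. TLL2 was well above background on no (0) GD165 BPA array, and was there at least 2.44-fold lower than at GD100. That bound sets the dim group at the lowest signal called above background on each of its arrays. FSTL3, a follistatin relative, rose by 0.43 ± 0.10 in controls (adjusted p = 0.0050) and differed by 0.38 with BPA (adjusted p = 0.019). NOG, with its lower mean at GD165, stood among antagonists of both directions.

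Of 26 other ligands, 2 were higher and 1 lower in controls. LEFTY2, an inhibitor of nodal signalling, fell from 4.52 to 5.08 in GD100 controls to 2.62 to 4.32 at GD165 (limma adjusted p = 0.0019), where 1 of 4 arrays was well above background. The size of this fall is uncertain too, as the log2 difference ranged from −1.46 to −0.28 over the settings, with adjusted p values up to 0.047. GDF15 and TGFB2 rose by 1.01 ± 0.22 and 0.68 ± 0.16. With BPA only the myostatin gene MSTN passed, and 0 of the arrays of those groups had it called above background.

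Of 18 receptors and coreceptors, HFE2, the BMP coreceptor hemojuvelin made mainly by muscle and liver, rose by 2.07 ± 0.40 in controls (limma adjusted p = 0.0018) and by 1.80 ± 0.43 with BPA (adjusted p = 0.0090), a call that held in only 3 of the 17 fits with 1 animal left out. The skeletal muscle marker sum was higher in GD165 controls (13.91 to 17.50) than in GD100 controls (12.85 to 13.18). With BPA, GD165 replicates 3 (13.76) and 4 (13.92) lay within the GD100 range of 12.85 to 13.97, and replicate 5 reached 16.52. The part of these markers in HFE2 was not tested. AMHR2, the receptor of anti-Müllerian hormone, fell by 1.24 ± 0.24 (adjusted p = 0.0018) and by 1.79 ± 0.26 with BPA (adjusted p = 0.0003). With BPA, ACVR1 and ACVRL1, type I receptors that bind BMPs, also rose, by 0.38 ± 0.09 (adjusted p = 0.0095) and 0.61 ± 0.13 (adjusted p = 0.0049). Of the 17 fits with 1 animal left out, ACVR1 passed with BPA in 4 and ACVRL1 in 10. In controls ACVR1 differed by 0.13 (limma adjusted p = 0.34) and ACVRL1 by 0.47 (adjusted p = 0.011), just short of the threshold.

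Of 16 SMADs and intracellular regulators, SMAD5, which carries the BMP signal, fell by 0.52 ± 0.10 in controls (limma adjusted p = 0.0021) and differed by −0.27 with BPA (adjusted p = 0.095). SKIL, a SMAD corepressor, rose by 0.64 ± 0.14 in controls. With BPA the only call was SMAD7, an inhibitory SMAD that BMP signalling itself induces, which rose by 0.47 ± 0.09 (adjusted p = 0.0029) and differed by 0.25 in controls (adjusted p = 0.054).

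Of 17 other BMP targets, ID4, the relative of ID1 and ID3, rose by 1.0 ± 0.17 in controls (limma adjusted p = 0.0009) and by 1.12 ± 0.19 with BPA (adjusted p = 0.0010). HEY1 rose by 0.66 ± 0.11 and 0.57 ± 0.12, and GATA2 fell by 0.59 ± 0.09 and 0.43 ± 0.10. ID4 thus shared the direction of ID1, and none of the remaining targets on the list passed in either age comparison. Between BPA and control at GD100 the smallest unadjusted limma p values belonged to SKIL, with a log2 difference of 0.38, to ACVR1B, with 0.31, and to INHBC, which was near background. At GD165 they belonged to KCP (−0.29), RGMB (−0.51) and ACVR1 (0.22), with limma adjusted p values of 0.50 to 0.56.

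**Figure D5:**
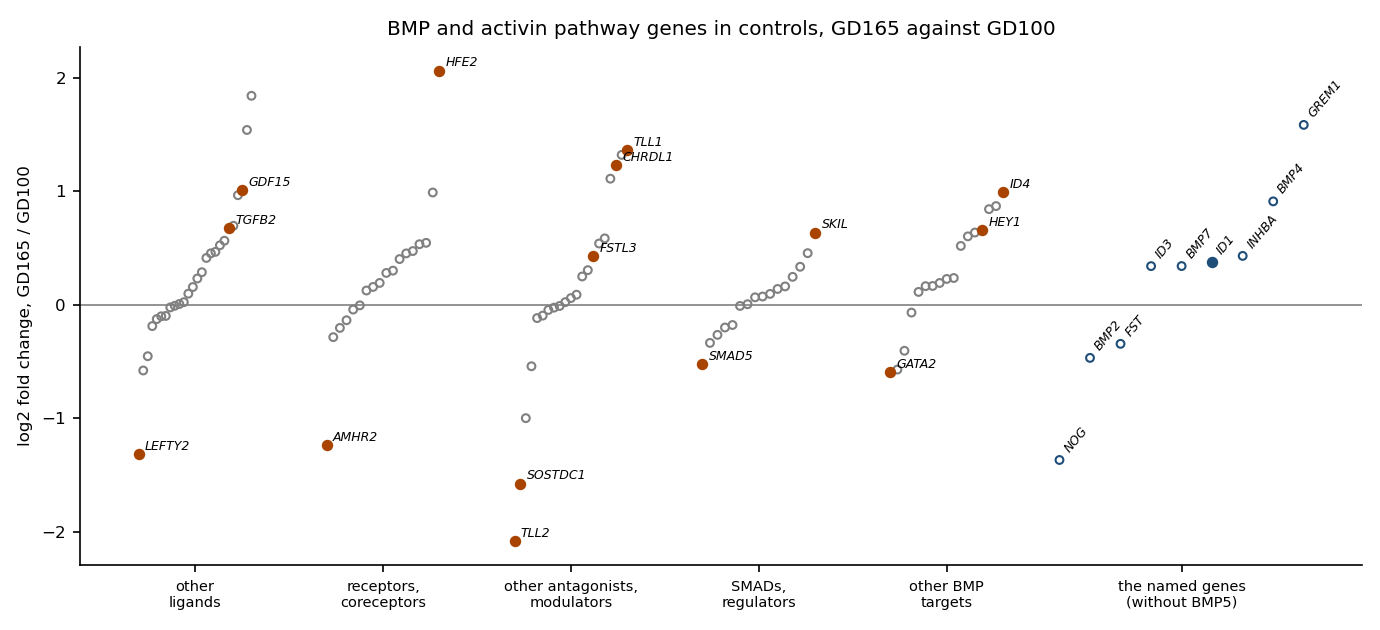
Log2 fold change with age in controls (vertical axis, GD165 over GD100) of the 98 other pathway genes by role and of 9 members at the right, each point a gene. Filled points passed an adjusted p of 0.01, 9 of the other genes upward and 6 downward, and among the members ID1.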

How the data were processed

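The authors hybridized Cy3-labeled RNA of each uterus to 1 array and read it with Feature Extraction 9.5 in its 1-color default setting. The deposited values are linear intensities with background subtracted and the signal detrended, not scaled across arrays. The table of all arrays deposited by the authors held the same values (711467 of 711467, tolerance 0).

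Here control spots and outlier spots were left out, the log2 signal was averaged over a probe's spots, and arrays were aligned on their 75th percentiles, with the mean of these, 12.62, kept as the common value. limma 3.58.1 in R 4.3.3 (lmFit, eBayes) was fitted to all 17 arrays in 4 groups, two-sided, with Benjamini-Hochberg adjustment over 20217 probes and the threshold of 0.01 that the methods name. The script was tested on simulated data. The error-weighted ANOVA of the methods was not repeated. Each fetus is a replicate, and the number of arrays limits the precision. The arrays lay on 6 slides, and 1 slide held a single array. Permutation tests used scipy 1.17.1 in Python 3.11.15.

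Named genes are the 10 members, pathway genes past 0.01 with age (at most 8 in each direction in controls, and all with BPA), the 3 with the smallest p for each BPA comparison, and the 3 genes most like each member. Members and gene lists were chosen with earlier results of these data known. MSTN and INHBC were near background. Alternatives covered background correction, scaling, filters, moderation, weights, slide and replicate blocks, the threshold, probe choice and each animal left out.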

Additional observations from a re-analysis of the deposited data

How the results depend on the processing

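In the age comparisons none of the 9 members other than BMP5, and no pathway gene named for its age difference other than MSTN, changed direction in any setting tried, while calls near the threshold were gained and lost. The cause was not tested. Members passing in controls, 1 in the report, were 2 with normexp background correction, quantile normalization, only probes well above background on at least 3 arrays (17935 probes), a trend and robust prior, error model weights or slide as a random block, where ID3 joined ID1. They were 0 with scaling to the median, without scaling, with only the compared groups, with slide as a fixed block or with a replicate block, and 4 at a threshold of 0.05. With BPA they were 0 with only the compared groups, slide as a fixed block or probes averaged per gene, and 2 at a threshold of 0.05. Pathway genes passing in controls were 7 with only the compared groups, 4 with slide as a fixed block, 7 with a replicate block and 25 at a threshold of 0.05, and with BPA 8, 2 and 24 for the compared groups, the fixed slide and 0.05. All probes passing in controls were 1531 without scaling, 1172 with only the compared groups, 1233 with slide as a fixed block, 958 with a replicate block and 4279 at 0.05. With BPA they were 1176 with only the compared groups, 512 with slide as a fixed block and 4255 at 0.05. For BPA against control at GD100, 1 probe passed with only those groups fitted.

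With each animal left out in turn, 0 to 2 members passed in controls and 0 to 2 with BPA, 11 to 17 and 7 to 14 pathway genes, and 1512 to 2370 and 994 to 2131 probes. For BPA against control at GD100, at GD165 and for the interaction 0 to 1 probes passed. The lowest counts came without GD165 control replicate 6 (1512 probes) and GD165 BPA replicate 4 (994 probes and 7 pathway genes), and 1181 probes passed without GD165 BPA replicate 5. With BPA, 8 pathway genes passed without GD100 BPA replicate 4 or GD165 BPA replicate 3 or 5. Of the named pathway calls, 11 of 15 in controls and 3 of 12 with BPA passed whichever animal was left out; MSTN, called with BPA but not above background, was not followed. NOG passed in controls without GD165 BPA replicate 4 (adjusted p = 0.0079) and with BPA without GD165 control replicate 6 (adjusted p = 0.0097), by the shared spread alone. Without scaling, the median log2 difference of all probes was 0.13 with age in BPA-exposed fetuses and 0.14 with BPA at GD165, and 76.2% of calls with age in BPA-exposed fetuses were higher, beside 49.8% with scaling.

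Only differences of BPA against control, none of which passed, changed sign. At GD100 these were ID3 with quantile normalization (0.0047) and, with slide as a fixed block, FST (−0.0112) and NOG (0.00728). At GD165, without scaling, BMP4 was 0.11, INHBA 0.11 and ID3 0.0742, with quantile normalization INHBA was 0.0206, and with slide as a fixed block BMP4 was 0.21, NOG 0.26 and ID1 −0.0175. BMP4 was 0.0033 with slide as a random block, and ID1 was −0.0576 as the mean of its probes. With an animal left out, the GD100 ranges were −0.30 to 0.20 for BMP4, −0.0593 to 0.0197 for ID3, −0.0239 to 0.201 for INHBA and −0.0702 to 0.0356 for NOG, and the GD165 ranges −0.39 to 0.32 for BMP4, −0.0923 to 1.03 for GREM1, −0.24 to 0.14 for INHBA and −0.60 to 0.31 for NOG.

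Same-numbered animals of different groups did not deviate together, with r from −0.17 to 0.12, so the numbers do not pair them. With the replicate block the age difference of ID1 was 0.34 (adjusted p = 0.054) in controls and 0.41 (adjusted p = 0.020) with BPA, NOG passed with BPA (adjusted p = 0.0091), and for BPA at GD165 BMP4 was 0.645 and INHBA 0.0671.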
